A study of Homo sapiens with 4 samples.

Results

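The interleukin 6 (IL-6) family genes measured here are 5 cytokines (IL6, IL11, LIF, CLCF1 and CTF1) and 5 receptor chains (IL6ST, IL6R, IL11RA, LIFR and OSMR). They were chosen by gene symbol, and each of the 10 is a row of the count tables, which list 23228 genes. Of the 10, 9 had enough reads to pass the filter on low counts, and CTF1 did not. RNA was sequenced from ES2, an established human ovarian cancer cell line, kept in phenol red-free medium with charcoal-treated serum. Control cells received vehicle, and treated cells received 100 μM liquiritigenin (Liq), a plant flavanone used in the study as an agonist of estrogen receptor beta (ERβ). Both were harvested after 24 h, with 2 samples per group. The labels do not say that the samples came from separate cultures, so p-values measure the spread between these samples, which may be technical.

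Most cytokines of this family act through receptor complexes that contain gp130, the product of IL6ST. IL-6 and IL-11 first bind their own alpha chains (IL6R and IL11RA), while leukemia inhibitory factor (LIF) and cardiotrophin use the LIF receptor beside gp130. For cardiotrophin-like cytokine, the LIF receptor and gp130 are part of the complex, and OSMR pairs with gp130 for oncostatin M. The complexes activate JAK kinases and the transcription factor STAT3, and SOCS proteins switch them off again. In ovarian cancer, IL-6 and LIF are known as cytokines that tumor cells and their surroundings release, and several of the family's ligand genes respond to NF-κB or AP-1.

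Each sample held 34573053 to 48933893 reads assigned to genes, so that 3 reads equalled 0.0598 to 0.0843 CPM (counts per 1000000 normalized counts). The labelled cell type was checked against marker genes. The mesenchymal gene VIM and the keratins KRT7, KRT8 and KRT18 were detected in each sample, whereas the epithelial markers CDH1 (0 counts in each sample) and EPCAM (1 to 3 counts) were at or near 0. Of the ovarian carcinoma markers, MUC16 had at most 1 count in any sample, and PAX8 had 46 to 49 counts in vehicle and 12 to 29 counts in Liq. Of the 10 markers of this list 6 were tested, and VIM, KRT18, PAX8 and WT1 were lower with Liq (log2 fold changes -0.28, -0.24, -1.34 and -0.68, edgeR adjusted p under 0.05), KRT7 was higher (0.51) and KRT8 did not pass (0.13). Of all tested genes, 11.3% were lower and 12.6% higher by this rule. The 10 markers together summed to 7810 to 8102 CPM in vehicle and 6401 to 7056 CPM in Liq, most of it from VIM. VIM averaged 7477 CPM in vehicle and 6174 CPM in Liq, so the sum says little about the other markers. Of 6 leukocyte markers, CD3E had 0 counts, PTPRC had 1 count in 1 sample, and the summed level of the list was 0.801 to 1.02 CPM in vehicle and 0.398 to 0.647 CPM in Liq, most of it from CSF1R. Of the endothelial markers, CDH5 was at 51.8 ± 1.6 CPM in vehicle while PECAM1 and VWF had at most 10 counts in any sample, and the list summed to 50.9 to 53.5 CPM in vehicle and 44.7 to 48.3 CPM in Liq. DCN and LUM, which mark fibroblasts, had at most 1 count in any sample, and with PDGFRB the list summed to 1.09 to 1.24 CPM in vehicle and 2.03 to 2.50 CPM in Liq. CSF1R was lower and PDGFRB higher with Liq (adjusted p = 0.00735 and 0.00223, edgeR), and the part of these marker genes in the results was not tested.

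Promoter sequences are shown for the ligand that changed most, the ligand whose groups overlapped, and the pair of alpha receptor chains that moved most and in opposite directions. RefSeq promoter windows (GRCh38.p14) were matched by symbol for 7 of the 10 genes; those of LIF, CLCF1 and CTF1 were not analysed here. Each sequence is the 250 bases before the start of transcription, written 5′ to 3′ on the strand of the gene. The windows are chr19:55370464-55370713 on the minus strand for IL11, chr7:22726950-22727199 on the plus strand for IL6, chr9:34651935-34652184 on the plus strand for IL11RA and chr1:154405093-154405342 on the plus strand for IL6R. Capitals mark matches to the searched motifs.
IL11: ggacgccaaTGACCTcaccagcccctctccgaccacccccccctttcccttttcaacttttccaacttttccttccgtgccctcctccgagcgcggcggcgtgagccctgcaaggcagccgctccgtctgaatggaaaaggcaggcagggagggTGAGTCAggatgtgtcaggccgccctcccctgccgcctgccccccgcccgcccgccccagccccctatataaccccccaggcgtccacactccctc
IL6: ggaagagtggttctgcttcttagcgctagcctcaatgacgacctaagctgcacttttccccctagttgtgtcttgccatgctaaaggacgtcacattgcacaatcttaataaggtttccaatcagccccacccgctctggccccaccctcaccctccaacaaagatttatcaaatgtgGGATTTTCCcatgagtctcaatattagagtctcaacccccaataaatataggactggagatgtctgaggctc
IL11RA: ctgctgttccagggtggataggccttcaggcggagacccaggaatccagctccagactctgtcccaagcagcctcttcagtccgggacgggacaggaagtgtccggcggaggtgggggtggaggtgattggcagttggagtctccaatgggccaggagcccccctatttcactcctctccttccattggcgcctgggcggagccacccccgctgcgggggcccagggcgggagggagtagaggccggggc
IL6R: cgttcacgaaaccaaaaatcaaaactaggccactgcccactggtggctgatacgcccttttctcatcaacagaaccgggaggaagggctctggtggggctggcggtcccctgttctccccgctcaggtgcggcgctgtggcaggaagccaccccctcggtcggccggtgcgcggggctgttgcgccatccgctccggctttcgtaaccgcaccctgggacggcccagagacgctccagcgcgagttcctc

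Motifs were searched on both strands, and their shares among the 35116 RefSeq windows of the same length are given for reference. The IL11 window held the AP-1 motif TGACTCA, read as TGAGTCA on the strand shown, from 96 to 90 bases before the start. This motif was present in 4.20% of all windows. The same window held the core unit of an estrogen response element, AGGTCA, read as TGACCT, from 241 to 236 bases before the start, and 12.1% of windows held it. The IL6 window held the NF-κB core GGANTTTCC from 72 to 64 bases before the start, which 1.45% of windows held. The cyclic AMP response motif TGACGTCA, in 1.65% of windows, was in none of the members' windows. The STAT motif TTCNNNGAA, in 6.57% of windows, was in 2 of the 3 LIFR windows, and the third LIFR window held AGGTCA. The windows of IL6ST, OSMR, IL6R and both windows of IL11RA held no match. These matches describe letters and do not show binding.

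Transcripts of the family ligands with the most reads were lower with Liq, IL11 at 0.355 and LIF at 0.518 of the vehicle level, and most receptor chains were higher, by 1.21-fold to 2.12-fold. Among the 5 ligands, IL11, LIF and CLCF1 fell, IL6 did not pass the test, and CTF1 had too few reads to test. Among the 5 receptor chains, IL6ST, LIFR, OSMR and IL11RA rose and IL6R fell. With a Benjamini-Hochberg adjusted p-value under 0.05 from edgeR's quasi-likelihood test over 13546 genes, 4 members were lower and 4 higher with Liq. Of all tested genes, 11.3% were lower and 12.6% higher by the same rule. With a change of at least 1.5-fold in addition, 3 members were lower (IL11, LIF and IL6R) and 1 was higher (IL11RA), beside 2.16% and 4.29% of all tested genes. Without control replicate 1, 2 members were lower and 2 higher, since CLCF1, IL6R, IL6ST and OSMR lost their calls, and with the DESeq2 Wald test 2 were lower and 3 higher. In 8 of the 9 tested members the vehicle and Liq samples did not overlap, as was the case for 61.7% of tested genes. In bulk RNA, fewer cells that express a gene and less RNA per cell cannot be told apart.

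**Figure D1:**
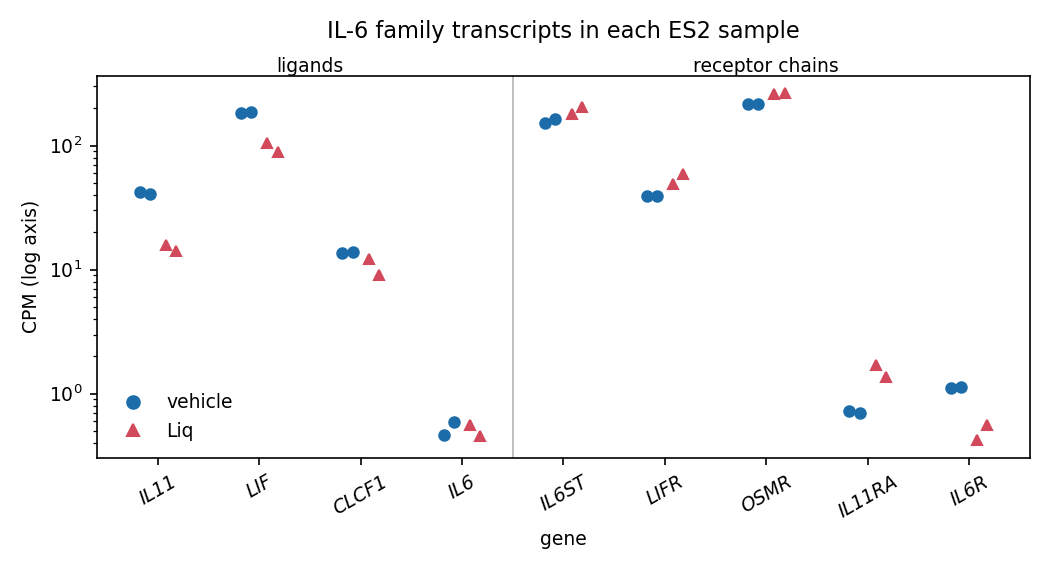
Each point is 1 sample, with the gene on the horizontal axis and CPM on a logarithmic vertical axis (circles, vehicle; triangles, Liq; n = 2 per group). IL11, LIF, CLCF1 and IL6R are lower in both Liq samples, IL6ST, LIFR, OSMR and IL11RA are higher, and the IL6 points overlap; CTF1, with 0 to 4 counts, is not drawn.

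IL11 encodes a cytokine first known for its action on blood and bone cells and later for fibrosis. The gene lies on chromosome 19 from 55875750 to 55881831 (GRCh37, minus strand) and its canonical transcript has 5 exons. HTSeq assigned it 1751 and 1538 reads with vehicle and 558 and 709 reads with Liq. After normalization these were 42.6 and 41.1 CPM in vehicle and 15.7 and 14.1 CPM in Liq, with the Liq samples far below both vehicle samples. The level with Liq was 0.355 of that with vehicle (95% interval 0.310 to 0.407, log2 fold change -1.49 ± 0.10 SE, adjusted p = 5.333e-12). This was the largest change among the 9 tested members. The call was kept in each of 11 alternative analyses, with log2 fold changes from -1.57 to -1.42.

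LIF encodes the leukemia inhibitory factor, which holds embryonic stem cells undifferentiated in mouse and acts in embryo implantation. It lies on chromosome 22 from 30636442 to 30642748 (GRCh37, minus strand) and was the family ligand with the most reads. With vehicle it was at 183.5 and 188.3 CPM, and with Liq at 104.2 and 88.6 CPM. The groups stood apart, and the Liq samples also differed from each other more than the vehicle samples did. The level with Liq was 0.518 of that with vehicle (95% interval 0.463 to 0.580, log2 fold change -0.95 ± 0.08 SE, adjusted p = 1.114e-09). Each alternative analysis kept this call, with log2 fold changes from -1.07 to -0.83.

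CLCF1, which encodes the cardiotrophin-like cytokine, fell by less. Its position is chromosome 11 from 67131639 to 67141648 (GRCh37, minus strand). The vehicle samples had 13.7 and 13.8 CPM, and the Liq samples 12.1 and 9.10 CPM, so that Liq replicate 1 lay close to the vehicle level. The log2 fold change was -0.38 ± 0.12 SE (95% interval -0.63 to -0.14, adjusted p = 0.0201). The call was lost without Liq replicate 2 (log2 fold change -0.18, adjusted p = 0.283), without control replicate 1 (adjusted p = 0.0846), without control replicate 2 (adjusted p = 0.0819) and with the DESeq2 Wald test (adjusted p = 0.0735). The log2 fold change was -0.39 and -0.38 without control replicate 1 and 2.

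IL6, which names the family and encodes a cytokine of fever and the acute phase, was barely expressed in these cells. The gene is on chromosome 7 from 22765503 to 22771621 (GRCh37, plus strand). The vehicle samples had 19 and 22 counts and the Liq samples 20 and 23 counts, which is 0.462 and 0.588 CPM against 0.562 and 0.458 CPM. The 4 samples overlapped. The log2 fold change was -0.05 ± 0.36 SE (adjusted p = 0.931), with a 95% interval from -0.79 to 0.68, so that at this depth the data allow a level with Liq between 0.580 and 1.60 of that with vehicle. Its sign depended on the samples used, with 0.12 without control replicate 2 and 0.11 without Liq replicate 2. A short stretch of its exons (46 bases) is shared with STEAP1B on the other strand, and the sources used here do not state whether counting used strand.

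CTF1 encodes cardiotrophin 1, a growth factor for heart muscle cells, and is on chromosome 16 from 30907935 to 30914868 (GRCh37, plus strand). The vehicle samples held 0 and 2 reads of it, the Liq samples 1 and 4. The ratio of the summed counts, 5 against 2, was 2.29 with an exact counting interval from 0.375 to 24.0, which covers counting error only. A difference was therefore not detectable at this depth.

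IL6ST encodes gp130, the chain that the receptors for IL-6, IL-11, LIF and oncostatin M share. It lies on chromosome 5 from 55230923 to 55290850 (GRCh37, minus strand). The vehicle samples had 153.4 and 164.3 CPM and the Liq samples 180.3 and 204.1 CPM. Both Liq samples lay above both vehicle samples, but the spread within a group was of similar size to the gap between the nearest samples. The rise was 1.21-fold (95% interval 1.09 to 1.35, log2 fold change 0.28 ± 0.07 SE, adjusted p = 0.00836). The call was lost without control replicate 1 (log2 fold change 0.23, adjusted p = 0.221) and without Liq replicate 2 (log2 fold change 0.18, adjusted p = 0.0651). A processed copy, IL6STP1, is annotated on chromosome 17, and reads that align to more than 1 place were not counted.

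LIFR and OSMR encode the chains that join gp130 in the receptors for LIF and for oncostatin M. Both lie on the short arm of chromosome 5, LIFR from 38474770 to 38608456 on the minus strand and OSMR from 38845960 to 38945698 on the plus strand (GRCh37), with 237503 bases between them. With vehicle LIFR measured 39.1 and 39.0 CPM, and with Liq 48.7 and 58.5 CPM. It rose 1.38-fold (95% interval 1.21 to 1.56, log2 fold change 0.46 ± 0.09 SE, adjusted p = 5.000e-04), and this call was kept in each of 11 alternatives. Liq replicate 2 had the higher value, and without it the log2 fold change was 0.32.

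OSMR had the highest level in CPM of the 10 members, with 217.4 and 217.6 CPM in vehicle and 262.9 and 265.2 CPM in Liq. The samples of a group were nearly equal and the groups stood apart. The rise was 1.21-fold (95% interval 1.10 to 1.34, log2 fold change 0.28 ± 0.07 SE, adjusted p = 0.00318). Although its value hardly moved, the call was lost without control replicate 1 (log2 fold change 0.28, adjusted p = 0.0860) and without control replicate 2 (log2 fold change 0.28, adjusted p = 0.0786).

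IL11RA, the alpha chain through which IL-11 binds gp130, rose from a low level. Its locus is on chromosome 9 from 34652159 to 34661899 (GRCh37, plus strand). Counts with vehicle were 30 and 26 and those with Liq 61 and 68, which is 0.730 and 0.694 CPM against 1.71 and 1.36 CPM. Both Liq samples were well above both vehicle samples. The rise was 2.12-fold (95% interval 1.46 to 3.09, log2 fold change 1.09 ± 0.26 SE, adjusted p = 0.00365). With the DESeq2 Wald test the adjusted p-value was 0.0537 at a log2 fold change of 1.10, and with offsets that follow the expression level the log2 fold change was 0.88 with the call kept. An unnamed gene model on the same strand (ENSG00000258728) covers 96.2% of the canonical exons of IL11RA and is not a row of the count tables, so its reads could not be told apart from those of IL11RA.

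IL6R, the alpha chain for IL-6 and the source of its soluble receptor, fell from a level as low. The gene spans chromosome 1 from 154377669 to 154441926 (GRCh37, plus strand). The vehicle samples had 46 and 42 counts and the Liq samples 15 and 28 counts, which is 1.12 and 1.12 CPM against 0.422 and 0.558 CPM. The level with Liq was 0.447 of that with vehicle (95% interval 0.292 to 0.686, log2 fold change -1.16 ± 0.30 SE, adjusted p = 0.00584). The adjusted p-value was 0.0506 without control replicate 1 (log2 fold change -1.16) and 0.0805 with the DESeq2 Wald test (log2 fold change -1.19).

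**Figure D2:**
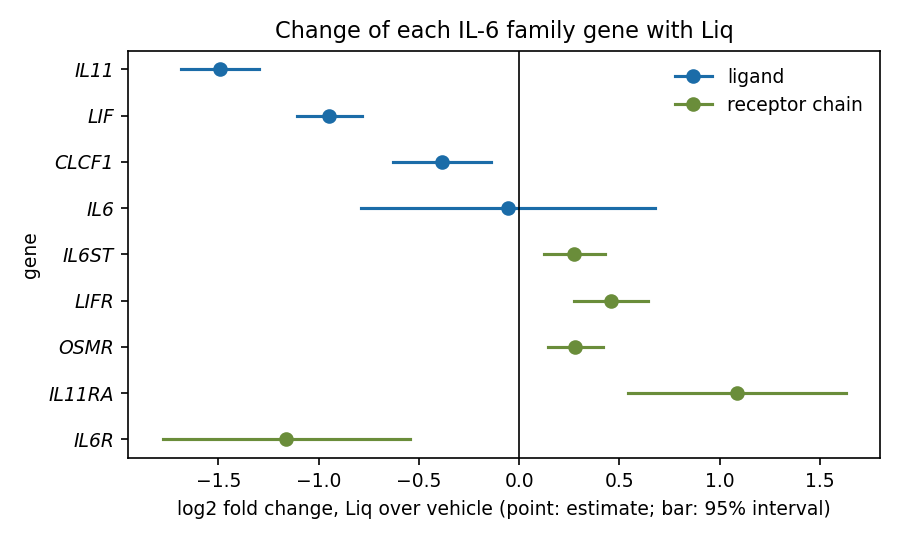
Points are log2 fold changes of Liq over vehicle for the 9 tested members (horizontal axis) and bars are their 95% intervals from edgeR. Of the intervals, the one of IL6 alone spans 0; those of IL11, LIF, CLCF1 and IL6R lie below 0 and those of IL6ST, LIFR, OSMR and IL11RA above it.

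To compare levels between genes, CPM was divided by the length of the canonical transcript in kilobases. In vehicle, LIF was highest with 48.0 ± 0.9 CPM per kilobase (SD, n = 2), followed by OSMR with 39.4 ± 0.03 CPM per kilobase. IL6ST and IL11 came next with 17.6 ± 0.9 and 17.6 ± 0.4 CPM per kilobase, and their samples overlapped. CLCF1 followed with 8.05 ± 0.03 and LIFR with 3.70 ± 0.01 CPM per kilobase. IL6, IL11RA and IL6R were below 1 CPM per kilobase, with 0.466 ± 0.079, 0.413 ± 0.014 and 0.194 ± 0.0004 respectively, and the samples of IL6 and IL11RA overlapped. With the length of all annotated exons, tried once the values were known, IL6 fell behind IL11RA and IL6R (0.121, 0.135 and 0.160 CPM per kilobase). By that length IL11 lay above IL6ST, at 15.6 ± 0.4 against 13.2 ± 0.6 CPM per kilobase.

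With Liq the order was led by OSMR, at 47.8 ± 0.3 CPM per kilobase (SD, n = 2). LIF followed with 24.9 ± 2.8 and IL6ST with 21.3 ± 1.9 CPM per kilobase. The nearest samples of this pair were 22.9 and 22.6, and by this length the 2 genes did not differ beyond their spread. With the length of all annotated exons IL6ST was at 15.9 ± 1.4 CPM per kilobase, LIF was unchanged, and their samples stood apart. IL11, CLCF1 and LIFR lay together at 6.27 ± 0.47, 6.21 ± 1.24 and 5.08 ± 0.66 CPM per kilobase, and the samples of CLCF1 overlapped with those of both neighbours. With the length of all annotated exons, CLCF1 overlapped with IL11 but not with LIFR. IL11RA stood at 0.891 ± 0.148 CPM per kilobase, above IL6 with 0.453 ± 0.065 and IL6R with 0.085 ± 0.017.

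The summed level of the 5 ligands was 73.8 and 74.5 CPM per kilobase with vehicle and 41.1 and 34.6 CPM per kilobase with Liq. For the 5 receptor chains the sum was 60.7 and 61.9 CPM per kilobase in vehicle and 73.2 and 77.0 CPM per kilobase in Liq. Transcripts of these 5 ligands thus exceeded those of these 5 receptor chains in both vehicle samples and were fewer in both Liq samples. Family chains outside the 10, such as IL31RA (54.3 CPM in vehicle) and IL27RA (15.7 CPM in vehicle), are not in the sums. The order therefore holds for these 10 genes only. With the length of all annotated exons the sums were 71.2 ± 0.5 and 47.0 ± 0.6 CPM per kilobase in vehicle and 36.4 ± 4.4 and 57.5 ± 2.2 CPM per kilobase in Liq. LIF made up 64.3% and 65.3% of the ligand sum in vehicle and 65.5% and 66.1% in Liq, so its share hardly moved. The share of IL11 went from 24.3% and 23.2% to 16.0% and 17.1%, and that of CLCF1 from 10.9% and 10.8% to 17.2% and 15.4%.

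**Figure D3:**
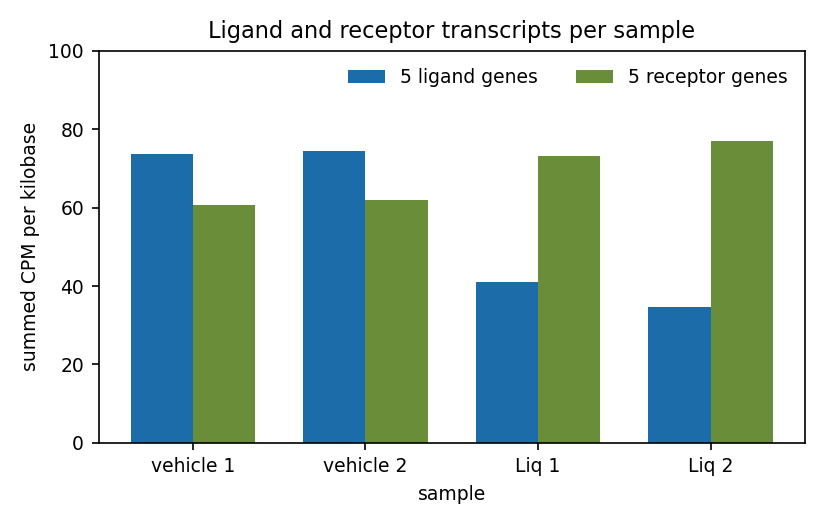
Bars give the summed CPM per kilobase (vertical axis, from 0) of the 5 ligand genes and the 5 receptor genes in each of the 4 samples. The ligand bar is the taller one in both vehicle samples, at 73.8 and 74.5, and the shorter one in both Liq samples, at 41.1 and 34.6.

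Ratios within a sample do not depend on how libraries are scaled. The count of IL11 was 58.4 and 59.2 times that of IL11RA with vehicle and 9.15 and 10.4 times with Liq. LIF counts were 4.69 and 4.82 times those of LIFR in vehicle and 2.14 and 1.51 times in Liq. Both pairs moved toward the receptor in both Liq samples. For IL6 and IL6R the ratio went the other way, from 0.413 and 0.524 in vehicle to 1.33 and 0.821 in Liq, on counts of at most 46 in any sample. The ratios are of counts, not per length, so only their movement between samples can be read.

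**Figure D4:**
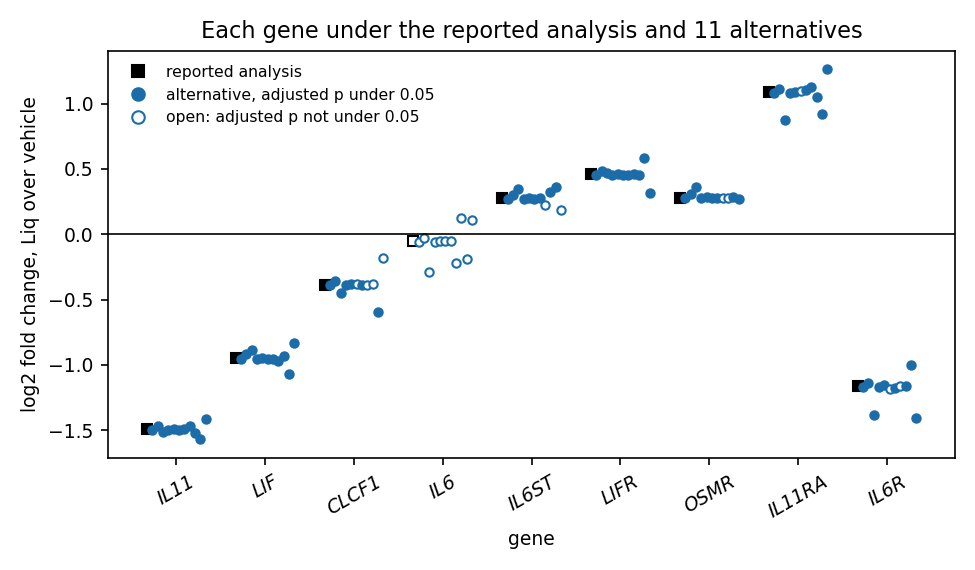
The vertical axis gives the log2 fold change of Liq over vehicle for each tested member (horizontal axis) in the reported analysis (squares) and in 11 alternatives (circles), filled where the adjusted p-value was under 0.05. IL11, LIF and LIFR are filled throughout, IL6 is open throughout and crosses 0, and the other members keep their sign but are open in 1 to 4 alternatives.

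The rest of the pathway was described with lists of genes written from general knowledge. Earlier results of these data were known when the lists were written, so their counts are a description and not an independent check. Of 67 listed genes outside the 10 members, 46 were tested, and 14 were lower and 5 higher with Liq at an adjusted p-value under 0.05 (edgeR), beside 11.3% lower and 12.6% higher of all tested genes. Fewer of these genes were called when either control sample was left out, above all among those that were higher. Which of the listed genes lost their call there is not given here, and the share of all genes called in those fits was not computed. In the reported analysis, with a change of at least 1.5-fold in addition, 6 were lower and 1 was higher. The shares of all tested genes by that rule were 2.16% and 4.29%. The median log2 fold change of all tested genes was 0.01.

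Of 9 further ligands and receptors of the family, 2 were expressed highly enough to be tested. IL27RA, the receptor chain for IL-27, fell from 15.7 ± 1.2 CPM to 10.1 ± 0.7 CPM (SD, n = 2), at a log2 fold change of -0.64 ± 0.11 SE and an adjusted p of 1.044e-04. IL31RA, which pairs with OSMR to bind IL-31, measured 54.3 ± 0.9 CPM with vehicle and 55.7 ± 0.3 CPM with Liq and did not pass the test (log2 fold change 0.04, adjusted p = 0.768). OSM, the oncostatin M gene, lies 16069 bases from LIF on the same strand and had 2 and 1 counts in vehicle and 1 and 4 counts in Liq. CNTF, IL27 and IL31 had 0 counts in each sample, below a floor of 3 counts or 0.0598 to 0.0843 CPM. EBI3 had 1 to 3 counts and CNTFR had 1 count in 1 sample.

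Of the 12 genes for JAK kinases, STAT factors and adaptors, 12 were tested, 2 fell and 1 rose, with a median log2 fold change of 0.002. These counts stand beside 11.3% lower and 12.6% higher of all tested genes, a similar share. SHC1, an adaptor to the RAS pathway, fell by 0.27 ± 0.07 (SE) in log2 units (adjusted p = 0.00398). GRB2, the adaptor that binds SHC1, fell by 0.24 ± 0.07 (SE) in log2 units (adjusted p = 0.0160). JAK1, the kinase bound to gp130, rose by 0.21 ± 0.07 (SE) in log2 units (adjusted p = 0.0230). STAT3 itself measured 57.9 ± 0.2 CPM with vehicle and 55.9 ± 2.9 CPM with Liq (SD, n = 2) and did not pass the test (log2 fold change -0.05, adjusted p = 0.683), and was named after its values had been seen.

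Among 9 feedback inhibitors and phosphatases, 8 were tested, 1 rose and 2 fell, and the median log2 fold change was -0.05. For all tested genes the shares were 11.3% lower and 12.6% higher. SOCS3, the inhibitor that binds gp130 and is itself a STAT3 target, rose from 51.2 ± 3.4 CPM to 65.4 ± 2.7 CPM (SD, n = 2), at a log2 fold change of 0.35 ± 0.08 SE and an adjusted p of 0.00264. PTPN2, a phosphatase of JAK and STAT proteins, fell by 0.29 ± 0.09 (SE) in log2 units (adjusted p = 0.0140), and SOCS2, which acts on growth hormone signaling, fell by 0.26 ± 0.09 (SE) in log2 units (adjusted p = 0.0465).

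Of 20 genes known as STAT3 targets, 19 were tested, 8 fell and 2 rose, beside 11.3% lower and 12.6% higher of all tested genes, and the median log2 fold change was -0.17. EGR1, a transcription factor induced within minutes by growth factors, fell most, from 127.1 ± 9.4 CPM to 32.9 ± 2.1 CPM (SD, n = 2), at a log2 fold change of -1.95 ± 0.08 SE and an adjusted p of 1.826e-15. IER3, another immediate early gene, had a log2 fold change of -0.91 (adjusted p = 4.416e-10), and the adhesion molecule gene ICAM1 one of -0.82 (adjusted p = 6.013e-09). The AP-1 subunit gene JUNB had one of -0.86 (adjusted p = 7.717e-07). Several of these genes are also known to respond to MAP kinases and NF-κB. The genes that rose, named after their values had been seen, were NNMT, with 0.654 ± 0.133 CPM in vehicle samples and 1.32 ± 0.11 CPM in Liq samples, and HIF1A, with a log2 fold change of 0.20 (adjusted p = 0.0187). The 9 that did not pass the test had log2 fold changes from -0.20 to 0.18. SOCS3, also a STAT3 target, rose (log2 fold change 0.35) but was listed with the feedback inhibitors and is not among these 20.

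Acute phase genes, which IL-6 induces in liver, were nearly silent, with 2 of 13 tested and 6 at 0 counts in each sample. SERPINA1, which encodes the inhibitor of neutrophil elastase, fell from 6.84 ± 0.91 CPM to 5.118 ± 0.002 CPM (SD, n = 2), at a log2 fold change of -0.42 ± 0.14 SE and an adjusted p of 0.0248. Of the proteases that shed IL6R from cells, ADAM17 rose by 0.29 ± 0.08 (SE) in log2 units (adjusted p = 0.0131), while ADAM10 had a log2 fold change of 0.18 that did not pass the test (adjusted p = 0.0989). The estrogen receptor genes were close to the detection limit. ESR2, which encodes ERβ, had 4 and 7 counts in vehicle and 5 and 14 counts in Liq and was not tested, and ESR1 had 22 and 17 counts in vehicle and 19 and 34 counts in Liq (adjusted p = 0.554).

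**Figure D5:**
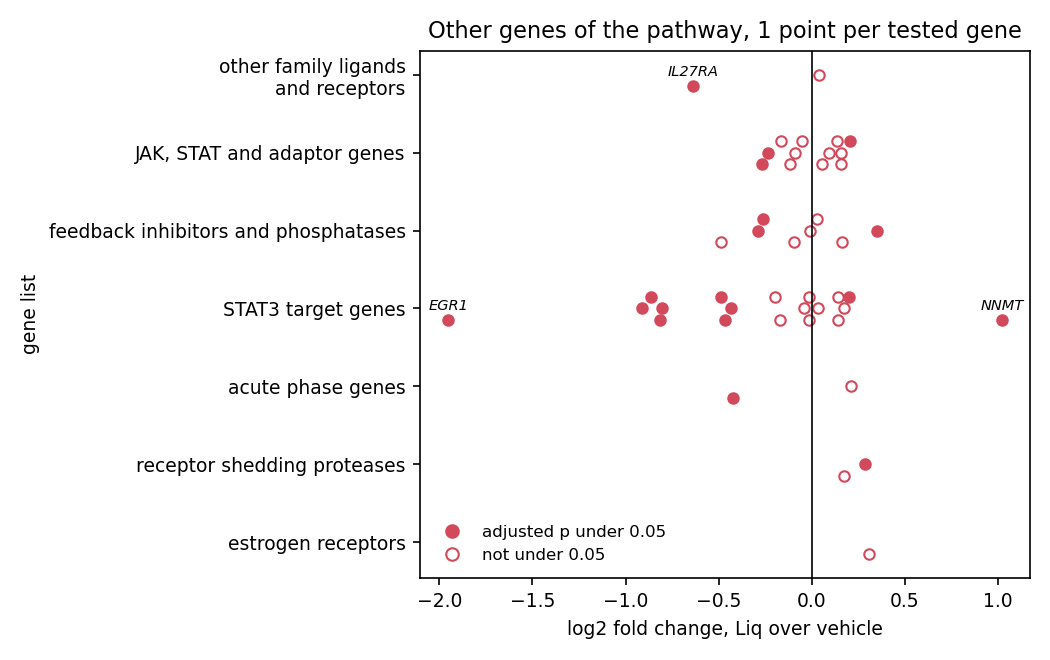
Each point is 1 tested gene of a pathway list (vertical axis), placed by its log2 fold change of Liq over vehicle (horizontal axis) and filled where the adjusted p-value was under 0.05. EGR1 at -1.95 and NNMT at 1.02 lie farthest out, and the points of the JAK, STAT and adaptor list lie between -0.27 and 0.21.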

How the data were processed

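Total RNA from 4 ES2 samples was sequenced by the authors as 100-base single-end TruSeq libraries. Per the labels, reads were aligned to hg19 with TopHat2 2.0.8b and counted per gene with HTSeq, and the authors deposited raw counts, not normalized, filtered or pooled. Multiply aligned reads and ambiguous reads were left out of the counts. The tally of non-unique alignments was 35.6% to 36.2% of everything tallied, and it may count a read more than once. The dose is from the study's methods.

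The whole table was fitted with edgeR 4.0.16 (R 4.3.3). Genes were kept by filterByExpr (minimum count 10, minimum total 15), normalized by TMM, and tested by the quasi-likelihood method (glmQLFit, glmQLFTest), Liq against vehicle, with no block for replicate. The Benjamini-Hochberg adjustment ran over 13546 genes, and 1.5-fold is the study's threshold. CPM uses TMM-scaled totals. The SE is the log2 fold change divided by the square root of F, and intervals are at 95%. The fits were tested on simulated data, where the changed genes had higher counts than IL6, IL6R, IL11RA and CTF1. The changes set there were larger than those of LIF, CLCF1, IL6ST, LIFR, OSMR and most called pathway genes, so calls of that kind were not covered. Gene coordinates and lengths are from GENCODE (GRCh37). Members and gene lists were chosen with earlier results of these data known. Named genes are the members, up to 4 genes per pathway list with the smallest p-values among those that passed (where none did, the 2 with the most counts), and marker genes by their counts. Other genes were named after their values were seen. Alternatives were other normalizations, loess offsets (limma 3.58.1, span 0.3), other filters, DESeq2 1.42.0, the replicate block and each sample left out. With 2 samples against 2 the precision rests on the spread shared across genes. Some genes of the lists are not reported here.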

Additional observations from a re-analysis of the deposited data

How the results depend on the processing

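IL11, LIF and LIFR kept their direction and their call in each of 11 alternatives. With the DESeq2 Wald test 2 members were lower in place of 4. At the 1.5-fold threshold, 1 member was higher in place of 4, and of the pathway genes 6 were lower and 1 was higher, with the adjusted and with the unadjusted p-value alike. Leaving out 1 sample at a time gave 2 to 4 lower and 2 to 4 higher members, and 9 to 14 lower and 1 to 6 higher pathway genes. Fewer samples were fitted there, and a group left with 1 sample was assumed to vary like the other. The log2 fold change of IL6 ranged from -0.22 to 0.12 in these fits. The median of all genes moved by less than 0.1 under every scaling. With the replicate number as a block, 4 members were lower and 4 higher as before, while 17 pathway genes were lower and 8 higher. The share of all tested genes called was not computed for the alternatives, so 11.3% and 12.6% belong to the reported analysis. Samples with the same number had deviations from their group means that correlated at 0.048, so the numbers are not taken as pairs. The low counts of IL6, IL6R, IL11RA and CTF1 limit what can be seen. The cause of these differences was not tested.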
